A study of Homo sapiens with 3 samples.

Results

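Oxidative phosphorylation genes were taken from the deposited table as the protein-coding genes whose symbols begin with NDUF, UQCR, COX followed by a digit from 4 to 8, ATP5, or MT-ND, MT-CO, MT-ATP and MT-CYB. The rule found 104 of 29960 listed genes, 91 in the nuclear genome and 13 on the mitochondrial chromosome. Of the nuclear genes, 71 encode structural subunits, 37 of complex I, 8 of complex III, 11 of complex IV and 15 of complex V. The other 20 are 7 complex I assembly factors, 5 isoforms of restricted tissues, 5 copies or readthrough genes, 2 further factors and the supercomplex factor COX7A2L.

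RNA-Seq was performed on the human bladder cancer cell line 5637, as parental cells (genotype WT) and as a gemcitabine-resistant derivative, and all libraries came from cells labelled untreated at harvest. The labels attribute resistance to an acute exposure and the study's methods to a continuous one, and those methods describe single-cell clones, so each library stands for 1 clone and not for the line. Samples were labelled for 1 parental library (5637P) and 2 resistant libraries (5637GR 1 and 5637GR 2), with 14475531, 15836788 and 17461941 counts on genes. Values per library are TMM-scaled CPM (counts scaled by library total), and levels compared between genes are the deposited FPKM, which divide by gene length. Fold changes are resistant over parental on the log2 scale, from edgeR's quasi-likelihood fit across 15643 genes. With 1 parental library the spread came from the 2 resistant libraries and from shrinkage over all genes. The parental library was assumed to vary like the resistant ones. In bulk RNA, fewer cells expressing a gene and less RNA per cell cannot be told apart. Of 16 urothelial and epithelial markers, KRT20 and UPK3A had at most 3 counts in any library, while EPCAM was read at 285, 337 and 291 CPM in 5637P, 5637GR 1 and 5637GR 2. The summed level of the 16 markers was 10325, 7582 and 7810.5 CPM in that order, with KRT5 and UPK1B called lower in the resistant libraries, and that of 7 listed markers of blood, vessel, stromal and muscle cells was 116, 98.5 and 63.9 CPM, of which COL1A1 made up 113, 96.8 and 61.2 CPM. Whether either list played a part in the results below was not tested.

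Oxidative phosphorylation couples electron transfer in the inner mitochondrial membrane to ATP synthesis. Complexes I, III and IV pump protons while passing electrons from NADH to oxygen, and complex V, the ATP synthase, uses the proton gradient. Complexes I, III, IV and V are built from subunits of both genomes, so their assembly needs transcripts made in the nucleus and in the mitochondrion. The study examined respiration in these lines, and the comparison here asks how the transcripts of these complexes differed between them.

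None of the 104 genes was called. Of 97 members that passed the filter on low counts, 0 had an adjusted p under 0.05 by edgeR's quasi-likelihood test, against 0.876% of all genes tested (0.294% higher and 0.582% lower), and the lowest adjusted p was 0.418. At an unadjusted p under 0.05 there were 2 members, NDUFA8 and NDUFB6, both lower in resistant cells, against 9.7% of all genes tested in either direction and 4.85% lower. DESeq2 gave 0 adjusted calls among members, against 1.67% of its genes, and 1 member at that unadjusted level. The fit could limit change only for part of the list: the 95% interval lay wholly within 2-fold in either direction for 26 of the 97. The median log2 fold change was 0.30 over the 13 mitochondrially encoded genes and -0.17 over the 71 nuclear subunit genes, beside 0.03 over all genes tested.

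The 2 genomes also differed in how the libraries were ordered. Among the mitochondrially encoded genes, 6 of 13 lay above the parental library in both resistant libraries and 0 lay below it in both. Over all genes tested, 35.2% were higher in both and 34.5% lower in both. Among the 71 nuclear subunit genes, 34 were lower in both (47.9%) and 11 higher in both (15.5%). Small differences made up most of these counts. When both resistant libraries had to lie at least 1.25-fold from the parental library, a margin chosen after seeing the data, 12 of the 97 members (12.4%) were lower and 4 (4.12%) higher, against 17.3% and 17.7% of all genes tested.

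Mitochondrially encoded genes took 2.27% of the counts in 5637P (Wilson 95% interval 2.26 to 2.28), 3.28% in 5637GR 1 (3.27 to 3.29) and 2.43% in 5637GR 2 (2.42 to 2.44). These intervals cover counting error only. Both resistant libraries were above the parental library, and they differed more from each other than 5637GR 2 did from 5637P. Nuclear subunit genes took 0.535%, 0.532% and 0.432% of the counts in the same order, so the parental library and 5637GR 1 were alike and 5637GR 2 was lower. The ratio of mitochondrial to nuclear subunit counts was 4.24 in 5637P, 6.17 in 5637GR 1 and 5.63 in 5637GR 2. It was higher in both resistant libraries, but with 3 libraries no permutation p can go below 0.333. In the authors' group means, which also include libraries without a label here, the sums over the mitochondrially encoded genes were 431427 normalized counts in the parental group and 431119 in the resistant group. The sums over nuclear subunit genes were 82586 and 76496, giving ratios of 5.22 and 5.64. The higher mitochondrial level of the labelled resistant libraries was therefore not present in the group means. In 5637P the ratio, 4.24, lay below that of the parental group mean, 5.22. The ratio of 5637GR 2, 5.63, was near that of the resistant group mean, 5.64, and that of 5637GR 1, 6.17, was above it. So 5637P was low against its own group mean in this ratio, and why was not tested. The nuclear sum was lower in the resistant group mean, which includes 5637GR 2. Among the labelled libraries the nuclear share was clearly lower in 5637GR 2 alone.

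Per length, 12 of the 13 mitochondrially encoded genes lay above every nuclear member in each library, and MT-ATP8 was the exception. Their median was 1354 FPKM in 5637P, 1574 in 5637GR 1 and 1358 in 5637GR 2, against 33.6, 39.0 and 25.2 FPKM for the nuclear subunit genes. MT-CO1 (chromosome MT, 5904 to 7445, build hg19), the catalytic core of complex IV, was highest in every library and lay at 7038, 9724 and 8156 CPM in 5637P, 5637GR 1 and 5637GR 2. Its log2 fold change was 0.35 ± 0.33 (SE; adjusted p = 0.856 by edgeR's quasi-likelihood test).

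MT-CO2, the complex IV subunit that accepts electrons from cytochrome c, was read at 1960, 3382 and 2424 CPM. It had the largest fitted value of the 13 genes, 0.57 ± 0.37 (SE; adjusted p = 0.716, edgeR), and both resistant libraries were above the parental one. MT-CO3, the third mitochondrial subunit of complex IV, lay at 2370 CPM in the parental library, between 2645 and 2088 in the resistant libraries. MT-CYB, the mitochondrial subunit of complex III, was nearly level at 1587, 1683 and 1558 CPM.

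Of the 7 mitochondrial subunits of complex I, which form its proton-pumping membrane arm, MT-ND1, MT-ND2, MT-ND3 and MT-ND4 were higher in both resistant libraries. MT-ND3 was read at 355, 527 and 453 CPM in 5637P, 5637GR 1 and 5637GR 2, a log2 fold change of 0.47 (95% interval -0.35 to 1.28). MT-ND4 was read at 3527, 5085 and 3602 CPM, so that most of its difference lay in 5637GR 1. For MT-ND1 the values were 1438, 1963 and 1672 CPM, with the resistant libraries on the same side, and for MT-ND2 1090, 1541 and 1142 CPM.

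The other 3 had the parental library between the resistant ones. MT-ND5 was level in 5637GR 1 and lower in 5637GR 2, at 1658, 1690 and 1183 CPM, and had the lowest fitted value, -0.21 ± 0.37 (SE; adjusted p = 0.944, edgeR). MT-ND6, the light-strand gene next to it, followed the same order at 448, 551 and 331 CPM. Its mRNA lacks a long poly(A) tail and the libraries were poly(A)-selected, and whether counting used strand is not given in the sources used here. MT-ND4L was at 269, 255 and 300 CPM.

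Genes that share a transcript did not have the same FPKM. MT-ATP8 and MT-ATP6, membrane subunits of complex V read from 1 mRNA, were at 39.0 and 2277 FPKM in the parental library. Their listed spans overlap by 46 bases (8527 to 8572). MT-ND4L and MT-ND4, also on 1 mRNA and overlapping by 7 bases, were at 882 and 2492 FPKM. As each pair is on 1 mRNA, these FPKM are values of listed genes and not levels of separate mRNAs. The listed lengths of MT-ATP8 and MT-ND4L were 207 and 297 bases. The part that overlap and length played in these values was not tested. MT-ATP6 was read at 1592, 2733 and 1536 CPM, a difference present in 5637GR 1 alone, and MT-ATP8 at 8.30, 7.83 and 9.33 CPM from 117, 128 and 162 counts.

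**Figure D1:**
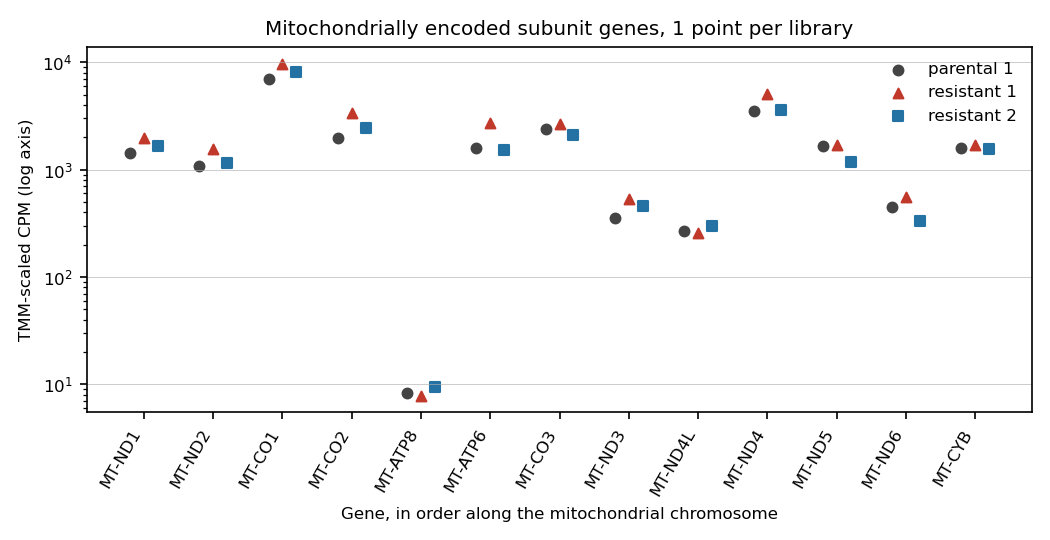
TMM-scaled CPM (log axis) of the 13 mitochondrially encoded genes, in order along the mitochondrial chromosome, with 1 point for each of the 3 libraries. MT-CO1 was highest in every library and MT-ATP8 lowest, and for 6 genes both resistant libraries lay above the parental library.

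The 37 nuclear subunits of complex I, the NADH dehydrogenase, had a median log2 fold change of -0.13, with a range from -0.96 to 0.49. Of them 17 were lower in both resistant libraries, 7 were higher in both, and 13 had the parental library between or level with the resistant ones. These counts were 45.9% lower and 18.9% higher, against 34.5% and 35.2% of all genes tested. By naming class the medians were -0.11 over the 11 NDUFS and NDUFV genes, which include the electron-transferring core, -0.12 over the 13 NDUFA genes, -0.24 over the 11 NDUFB genes, accessory subunits of the membrane arm, and -0.48 over the 2 NDUFC genes.

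NDUFA8, an accessory subunit of complex I, had the lowest unadjusted p of all members and is named for that reason, chosen after its values were seen. It was read at 114 CPM in 5637P and at 65.4 and 58.0 CPM in 5637GR 1 and 5637GR 2, a log2 fold change of -0.89 (95% interval -1.64 to -0.13; unadjusted p = 0.026 and adjusted p = 0.418, edgeR). As a group mean of the authors it had 1653 normalized counts in parental and 1036 in resistant cells. The groups did not overlap in the labelled libraries, and the group means had the same direction.

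NDUFB6 (ENSG00000165264, chromosome 9, 32552997 to 32573160, hg19), an accessory subunit of the membrane arm, was read at 42.0, 24.6 and 20.6 CPM in 5637P, 5637GR 1 and 5637GR 2. Its log2 fold change was -0.89 (95% interval -1.68 to -0.11; unadjusted p = 0.030 and adjusted p = 0.436, edgeR). Other listed genes cover 77.5% of its span, so its count may hold or lack shared reads, which was not tested. NDUFC2, another membrane arm subunit, had the lowest fitted value of any subunit, -0.96 ± 0.55 (SE), from 71, 49 and 38 counts. Each of these genes lay below the parental library in both resistant libraries, and none passed the adjusted threshold.

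At the other end of complex I, NDUFA11 lay at 7.52, 8.31 and 12.8 CPM, a log2 fold change of 0.49 ± 0.48 (SE; adjusted p = 0.862, edgeR). Other listed genes cover 98.3% of its span, so the limit given for NDUFB6 applies to it too. NDUFA7 was counted at 6, 8 and 12 reads, too few to give more than a wide interval (-1.88 to 2.82 around 0.47). The subunits most abundant per length were NDUFS5, with 236 FPKM in the parental library, and NDUFV1, with 169 FPKM. NDUFV1, which carries the flavin that takes electrons from NADH, was at 304, 219 and 299 CPM, so that 5637P and 5637GR 2 were alike and 5637GR 1 was lower. NDUFS5 was at 133, 137 and 90.2 CPM, with the opposite order of the resistant libraries.

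The 7 NDUFAF genes encode assembly factors of complex I, which are not part of the finished enzyme. Their fitted values had a median of 0.13 and lay on both sides of 0. Each resistant library alone had a median below 0 against the parental library, -0.21 and -0.006 in the order used above. The authors' group means gave -0.12, with 5 of the 7 genes below 0. The sign of the fitted median was thus not shared by either library or by the group means. NDUFAF3, chosen after its values were seen, was the highest at 15.1, 25.3 and 24.6 CPM (log2 fold change 0.72, 95% interval -0.13 to 1.57). Another listed gene covers 60.4% of the NDUFAF3 span, and the effect on its count was not tested. NDUFAF2 was the lowest at 17.9, 11.9 and 12.2 CPM (-0.57 ± 0.39, SE). Both pairs of resistant libraries lay close together and apart from the parental library, with adjusted p of 0.611 and 0.740 by edgeR.

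The name rule found 8 nuclear subunits of complex III, the cytochrome bc1 complex. All 8 had a fitted value below 0, from -0.36 to -0.04 with a median of -0.23. CYC1, a further nuclear subunit of complex III, lies outside the rule and is given below. Of all 15643 genes tested, 7462 had a fitted value below 0. The direction held in both resistant libraries for 5 of the 8 (62.5%), against 34.5% lower in both over all genes tested. UQCRQ was lowest, at 32.3, 28.9 and 21.3 CPM (95% interval of the log2 fold change -1.20 to 0.47). UQCR11 (ENSG00000127540) followed at -0.33 from 22, 18 and 24 counts. UQCRFS1, the Rieske iron-sulfur protein, was nearest to 0 at 48.7, 43.7 and 51.4 CPM, with UQCRB next at 46.5, 52.1 and 31.8 CPM. The most abundant nuclear gene of the whole list per length was UQCRH, the hinge protein, with 301, 292 and 236 FPKM. The core protein UQCRC1 had 113 FPKM in the parental library and a log2 fold change of -0.20 ± 0.36 (SE).

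Of the 11 nuclear subunits of complex IV, cytochrome c oxidase, 10 had a fitted value below 0 and 7 were lower in both resistant libraries, with a median of -0.23. Those 7 were 63.6% of the subunits, against 34.5% lower in both over all genes tested. COX7C was read at 174, 149 and 94.5 CPM, a log2 fold change of -0.52 ± 0.39 (SE; adjusted p = 0.774, edgeR). COX5A was at 78.8, 72.3 and 41.2 CPM. In both genes 5637GR 1 was near the parental library and 5637GR 2 was well below it. COX6B1 and COX5B, the most abundant per length at 159 and 121 FPKM in the parental library, had resistant libraries close to each other. COX6B1 was read at 109, 79.8 and 80.2 CPM (-0.44 ± 0.34, SE) and COX5B at 91.5, 75.7 and 74.4 CPM. COX8A was the exception, higher in both resistant libraries at 16.0, 25.0 and 19.8 CPM (0.49, 95% interval -0.39 to 1.37). NDUFA4, named as a complex I gene but a subunit of complex IV, lay at 107, 112 and 88.3 CPM with the parental library between the resistant ones.

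The isoforms that replace ubiquitous complex IV subunits in particular tissues were scarcely read. COX4I2, the lung and hypoxia-associated partner of COX4I1, had 0, 0 and 1 counts, and COX8C, the testis partner of COX8A, had 0, 1 and 0, both at or under the floor of 3 counts (0.173 to 0.213 CPM). COX7A1, the heart and muscle partner of COX7A2, had 6, 7 and 12 counts. NDUFA4L2, a hypoxia-inducible relative of NDUFA4, had 6, 1 and 9. COX6B2, the testis partner of COX6B1, had most reads of the set, 35, 23 and 68, and its 2 resistant libraries lay on opposite sides of the parental one. Against these, COX4I1 was read at 263, 245 and 204 CPM, COX7A2 at 87.8, 96.9 and 71.4 CPM, COX7B at 40.7, 48.4 and 24.1 CPM and COX6A1 at 8.66, 8.31 and 6.39 CPM. Restricted partners of COX7B and COX6A1 were not among the genes that the rule found. In the other pairs, those of COX6B1, COX8A and NDUFA4 included, the ubiquitous isoform had more reads than its partner in every library.

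The 15 nuclear subunits of complex V had a median of -0.03 and a range from -0.74 to 0.98. Before the values of chromosomal neighbours were subtracted this was the median nearest to 0 of the 4 complexes, and after it complex I was nearest (-0.042, against -0.16 for complex V). ATP5B (current symbol ATP5F1B; chromosome 12, 57031959 to 57039798, hg19), the catalytic beta subunit and the most abundant per length at 244 FPKM in the parental library, was read at 449, 320 and 215 CPM. Its log2 fold change was -0.74 (95% interval -1.59 to 0.10; adjusted p = 0.588, edgeR), and as authors' group means it had 6833 and 4522 normalized counts. ATP5A1, the alpha subunit that alternates with it in the catalytic ring, was at 352, 388 and 302 CPM, a log2 fold change of -0.03 ± 0.37 (SE). The resistant libraries of ATP5B were both below the parental library and those of ATP5A1 on either side of it. The difference between the subunits was not tested. ATP5O, the stalk subunit that confers oligomycin sensitivity, was second lowest at 7.88, 6.11 and 3.80 CPM.

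ATP5G1 (ATP5MC1) is 1 of 3 genes for the same subunit c of the membrane ring. It was higher in both resistant libraries, at 68.2, 118 and 89.9 CPM (log2 fold change 0.61 ± 0.37, SE; adjusted p = 0.692, edgeR). The other two, ATP5G2 and ATP5G3, had values of -0.31 and -0.13. ATP5I had the highest value of the complex, 0.98, but from only 8, 20 and 18 counts, with an interval from -0.98 to 2.94. Thus the gene with the largest fitted difference was also among the least read.

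**Figure D2:**
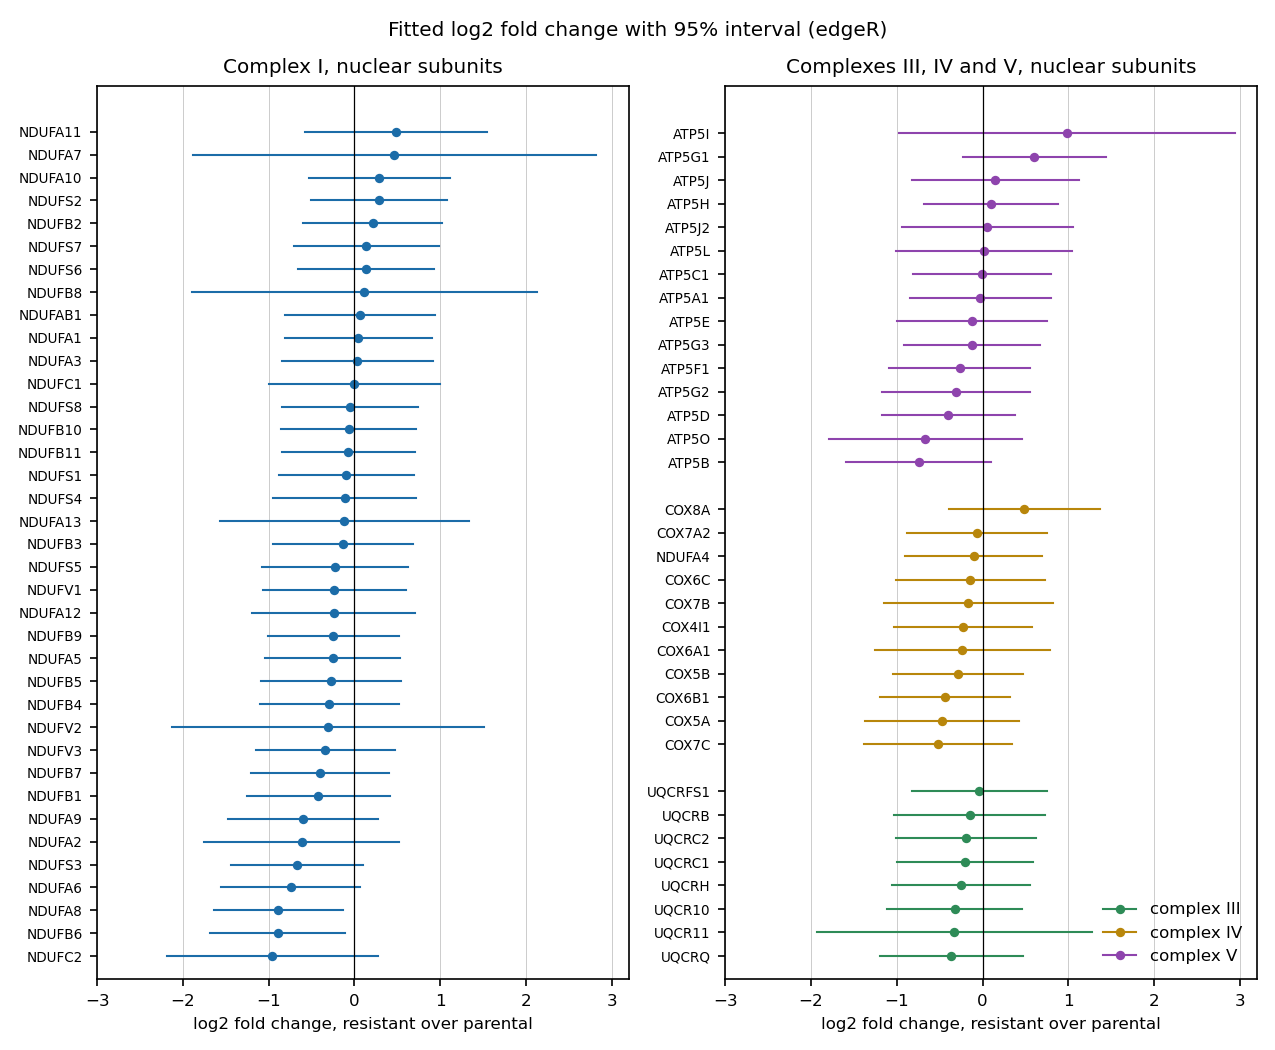
Fitted log2 fold change, resistant over parental, of the 71 nuclear subunit genes with 95% intervals from edgeR, complex I on the left and complexes III, IV and V on the right. Only the intervals of NDUFA8 and NDUFB6 leave out 0, and neither gene passed the adjusted threshold.

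The resistant libraries differed from each other in these genes. Against the same parental library, the median log2 ratio of the nuclear subunit genes was -0.06 in 5637GR 1 and -0.32 in 5637GR 2, and in 54 of the 71 genes 5637GR 1 was the higher of the pair. For complex V the medians were 0.16 and -0.36, for complex IV -0.06 and -0.36, for complex III -0.16 and -0.41 and for complex I -0.10 and -0.29. Mitochondrially encoded genes had medians of 0.45 and 0.07, and 5637GR 1 was the higher in 11 of 13. The authors' group means gave a median of -0.01 for the mitochondrially encoded genes and of -0.09 for the nuclear subunit genes, and by complex -0.08 for I, -0.09 for III, -0.15 for IV and -0.03 for V. The group means and the labelled libraries share libraries, so these values are given side by side only.

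**Figure D3:**
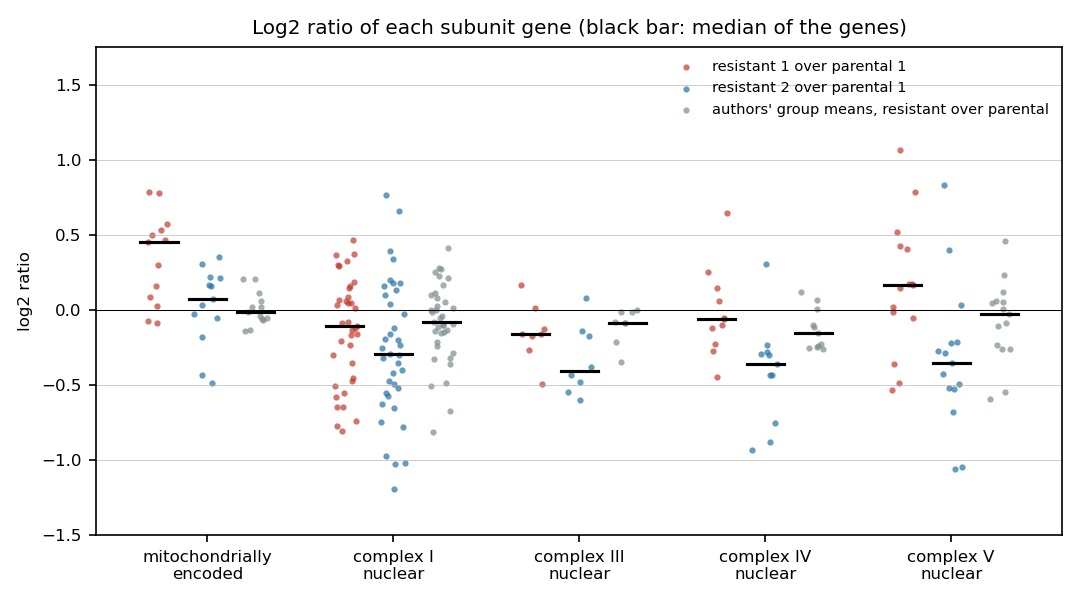
Log2 ratio of each mitochondrially encoded gene and each nuclear subunit gene by complex, for each labelled resistant library over the parental library and for the authors' group means with a pseudocount of 1; black bars are medians over genes. The mitochondrially encoded medians are 0.45, 0.07 and -0.01, and every nuclear median except that of complex V in 5637GR 1 (0.16) is below 0.

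The fitted values of the nuclear subunit genes followed those of their chromosomal neighbours. For each of the 71 genes the median log2 fold change of the other tested genes within 5 Mb was computed (13 to 253 neighbours). Across these genes, which all come from the same 3 libraries and partly share windows, Pearson's r was 0.63 and Spearman's rho 0.55, and r was 0.58 without ATP5B and NDUFB6. This window was chosen after seeing the data. The same correlation was not computed over all genes tested, so it is not known to be particular to these genes. By chromosome, the median of the other tested genes ranged from -0.36 on chromosome 12 to 0.43 on chromosome 4. In 13 genes the neighbours had a median of -0.3 or lower, and the 13 genes had a median of -0.60, against -0.12 for the 56 genes with neighbours between -0.3 and 0.3. The low windows held NDUFB6, whose 70 neighbours on chromosome 9 had a median of -0.86, NDUFC2 with 58 neighbours on chromosome 11 (-0.56), ATP5B with 126 neighbours on chromosome 12 (-0.56) and NDUFA6 with 151 neighbours on chromosome 22 (-0.42). ATP5I lay at the other end, with 66 neighbours on chromosome 4 at 0.57. COX8A was set apart, since it was higher in both resistant libraries among 233 neighbours on chromosome 11 with a median of -0.34. NDUFA8 lay further down than its neighbours, at -0.89 against -0.29. With the median within 5 Mb subtracted, the nuclear subunit genes had a median of -0.14, against -0.17 before. By complex the medians then were -0.042 for I, -0.24 for III, -0.25 for IV and -0.16 for V, so that complex I moved towards 0 and complex V away from it.

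**Figure D4:**
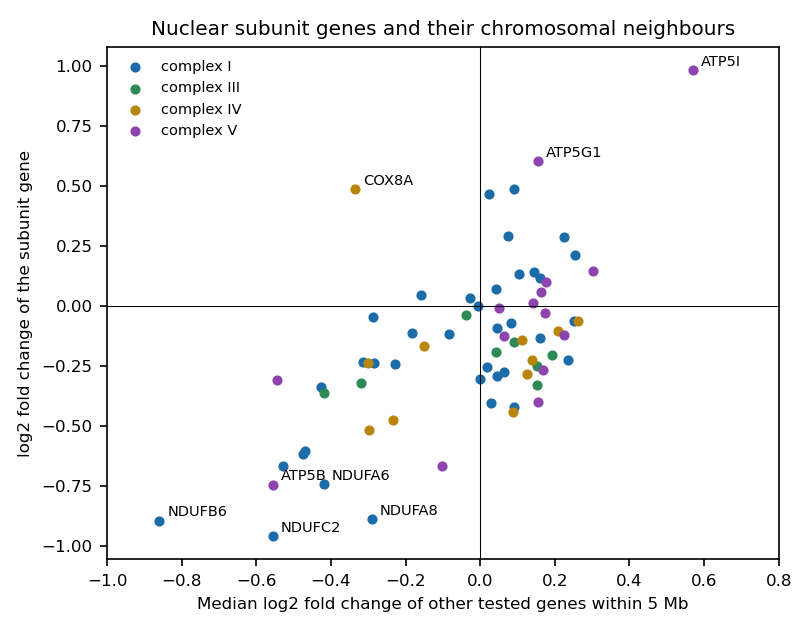
Log2 fold change of each of the 71 nuclear subunit genes against the median log2 fold change of the other tested genes within 5 Mb, coloured by complex. NDUFB6, NDUFC2 and ATP5B sit at the lower left with low neighbours, ATP5I at the upper right, and COX8A above neighbours at -0.34.

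The promoters of nuclear respiratory genes are known for sites of NRF1, of ETS factors such as GABPA, and of YY1. RefSeq promoter windows (GRCh38.p14, 250 bases before to 50 after the start) were matched for 59 of the 71 nuclear subunit genes and searched on both strands for short forms of these motifs, which may overlap. TGCGCA, the core of the NRF1 motif, was in 27.1% of the 59 windows, against 13.3% of the windows of tested genes and 8.42% of all windows. CCGGAAG, an ETS motif, was in 28.8%, against 18.8% and 10.7%. By complex it was in 15.6% of 32 windows for I, 42.9% of 7 for III, 55.6% of 9 for IV and 36.4% of 11 for V. AAGATGGC, a YY1 motif, was in 16.9%, against 5.17% and 3.03%, and in 0 of the 9 complex IV windows. At least 1 of these was in 55.9% of the subunit windows, against 32.5% and 19.7%. The median fold changes of subunit genes with and without each motif were -0.24 and -0.12 for TGCGCA, -0.23 and -0.15 for CCGGAAG and -0.16 and -0.17 for AAGATGGC. These shares and medians describe letters, not binding. The 250 bases before the RefSeq start are shown 5′ to 3′, with motif letters in capitals, for the pair of genes with an unadjusted p under 0.05, for COX8A, the complex IV exception, and for UQCRQ, the lowest of complex III.
NDUFA8 (chr9:122159780-122160029, minus strand): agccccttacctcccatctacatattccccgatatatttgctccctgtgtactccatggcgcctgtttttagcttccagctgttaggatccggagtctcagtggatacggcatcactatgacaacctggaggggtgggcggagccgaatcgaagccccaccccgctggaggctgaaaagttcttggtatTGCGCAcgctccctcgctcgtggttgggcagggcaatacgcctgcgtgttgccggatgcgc
NDUFB6 (chr9:32573160-32573409, minus strand): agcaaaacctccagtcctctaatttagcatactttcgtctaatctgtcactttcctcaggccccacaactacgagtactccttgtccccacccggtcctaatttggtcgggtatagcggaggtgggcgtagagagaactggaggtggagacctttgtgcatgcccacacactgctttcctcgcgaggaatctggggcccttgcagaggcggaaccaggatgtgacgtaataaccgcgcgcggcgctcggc
COX8A (chr11:63974370-63974619, plus strand): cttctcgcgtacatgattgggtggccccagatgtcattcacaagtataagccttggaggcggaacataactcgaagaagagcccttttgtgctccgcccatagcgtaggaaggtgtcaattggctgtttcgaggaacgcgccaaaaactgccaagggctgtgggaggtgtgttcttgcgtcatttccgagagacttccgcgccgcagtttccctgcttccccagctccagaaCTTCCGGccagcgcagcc
UQCRQ (chr5:132866392-132866641, plus strand): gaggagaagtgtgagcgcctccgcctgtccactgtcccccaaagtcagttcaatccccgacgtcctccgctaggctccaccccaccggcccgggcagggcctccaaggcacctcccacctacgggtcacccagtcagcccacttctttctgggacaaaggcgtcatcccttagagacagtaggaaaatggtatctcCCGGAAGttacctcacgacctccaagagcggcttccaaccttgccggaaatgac
NDUFA8 holds TGCGCA beginning 61 bases before the start, COX8A the reverse form of the ETS motif 18 bases before it and UQCRQ the forward form 54 bases before it. None of the searched letters were in the printed stretch of NDUFB6.

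Several subunit genes had far fewer reads than their partners in the same enzyme. The nuclear subunit genes ranged from 0.560 to 301 FPKM in the parental library, although most structural subunits are present once per complex. Of the 71 genes, 10 had a mean under 5 FPKM, among them NDUFB8, NDUFV2, NDUFA13 and UQCR11. In the deposited annotation, 14 subunit genes had 50% or more of their span covered by other listed genes, and their median was 13.3 FPKM, against 44.2 FPKM for the other 57. NDUFB8 and UQCR11 were covered over 100% of their span, the latter by a second listed UQCR11 gene, ENSG00000267059, counted at 2, 7 and 5 reads. NDUFA6, ATP5G1 and ATP5H were also covered over 100% of their span and had means of 60.3, 41.7 and 24.8 FPKM. NDUFA7 and NDUFC2 were low with under 2% covered. The 23 genes with a listed pseudogene had a median of 32.7 FPKM and the 48 without one 35.8 FPKM. Reads of overlapping genes and of near-identical copies may have been left out or split in counting, which was not tested, and the low levels of these genes are uncertain for that reason. The copies COX6A1P2, ATP5EP2 and ATP5L2 and the readthrough ATP5J2-PTCD1 had at most 16 counts in any library.

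Genes of the pathway outside the name rule were also without calls. Of the 4 subunits of complex II with CYC1 and cytochrome c (CYCS), 6 of 6 were tested and 0 were called, with fitted values from -0.17 (SDHB) to 0.17 (SDHC). CYC1, a subunit of complex III, was read at 368, 325 and 343 CPM (-0.14), lower in both resistant libraries. Of the assembly factors of complexes II to V, 32 were tested and 0 called. Their median was 0.15, from SDHAF2, at 3.12, 1.47 and 1.55 CPM (-1.04 ± 0.62, SE), to TMEM70, at 16.4, 18.2 and 30.4 CPM (0.57 ± 0.43, SE). Of 28 tested genes for mitochondrial transcription, RNA stability and DNA maintenance, 0 were called and the median was 0.03. The lowest of them was MTERFD3 (-0.67 ± 0.57, SE) and the highest RRM2B, a ribonucleotide reductase subunit that supplies nucleotides for mitochondrial DNA, at 4.19, 8.38 and 6.33 CPM (0.81 ± 0.51, SE; adjusted p = 0.699, edgeR). No gene of these 3 lists had an unadjusted p under 0.05 by edgeR, against 9.7% of all genes tested. At the adjusted threshold only 0.876% of all genes tested were called, so 0 calls in lists this small say little about them.

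Of 9 regulators of nuclear respiratory genes, 0 were called and 0 had an unadjusted p under 0.05 (edgeR), against 0.876% and 9.7% of all genes tested. NRF1 and GABPA are named because their motifs were searched. NRF1 was read at 27.7, 23.5 and 23.3 CPM and GABPA at 29.4, 25.5 and 23.4 CPM, both lower in the labelled resistant libraries than in 5637P. As authors' group means NRF1 had 361 normalized counts in parental and 363 in resistant cells, without that direction, and GABPA had 394 and 360.1. PPARGC1B, a coactivator of mitochondrial biogenesis and the lowest of the list, was at 15.3, 8.93 and 10.4 CPM (-0.66 ± 0.41, SE; adjusted p = 0.696, edgeR), and as authors' group means it had 312 and 145 normalized counts. Its relative PPARGC1A had 0 counts in 5637P, 0 in 5637GR 1 and 31 in 5637GR 2, so that its reads came from 1 resistant library. Of 3 complex V genes that the name rule missed, the ATP synthase inhibitor ATPIF1 was higher in both resistant libraries, at 47.5, 77.3 and 65.0 CPM (0.58, adjusted p = 0.695, edgeR), while USMG5 had a value of 0.17. C14orf2 was read at 43.0, 56.0 and 26.6 CPM, with the parental library between the resistant ones.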

How the data were processed

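Poly(A)-selected RNA was sequenced by a service provider on an Illumina platform. The submitters' processing notes name CASAVA 1.8 and hg19, and the aligner, counter and annotation are not given in the sources used here. Raw read counts per gene are used as the authors deposited them. The deposited FPKM equal these counts divided by listed gene length and summed counts. The group signal is the authors' mean of counts divided by size factors, with no SD. The 6 columns of per-library values without a sample label, and the authors' fold changes and p-values, were not used.

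Counts of 1 parental and 2 resistant libraries were filtered (filterByExpr), TMM-scaled and fitted with glmQLFit (edgeR 4.0.16, R 4.3.3) at 1 residual degree of freedom. Genes were called at a Benjamini-Hochberg adjusted p under 0.05 over 15643 genes. DESeq2 1.42.0 was an alternative. P-values, SE and intervals rest on the spread between 2 resistant libraries, shrunk towards a value estimated over all genes. That shrinkage supplied 8.95 of 9.95 total degrees of freedom. The SE is the fold change over the root of F. A named gene was mitochondrially encoded, called, extreme or most abundant in its complex, an isoform pair, or extreme in a pathway list, and further genes were chosen after their values were seen. Members and lists were chosen with earlier results of these data known. Python 3.11.15, pandas 2.3.3, scipy 1.17.1 and matplotlib 3.10.9 were used.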

Additional observations from a re-analysis of the deposited data

How the results depend on the processing

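No paired analysis was possible because the labels do not pair libraries between the groups, and an equal replicate number in a title is no pairing. The count of 0 members called by edgeR was 0 under every alternative that gave a test, DESeq2 included, and the unadjusted p fell under 0.05 for 2 members by edgeR and 1 by DESeq2. Leaving out each resistant library in turn left 1 library a group and so values with no test. The nuclear subunit median then ranged from -0.32 to -0.06 and the mitochondrially encoded median from 0.07 to 0.45. By complex the nuclear ranges were -0.29 to -0.10 for complex I, -0.41 to -0.16 for III, -0.36 to -0.06 for IV and -0.36 to 0.16 for V, the lower bound each time from leaving out 5637GR 1. In the authors' group means, with a pseudocount of 1 or 5, the mitochondrially encoded median was -0.015, and by complex 0.018 for I, -0.015 for IV and -0.020 or -0.021 for V. With genes of a mean CPM of at least 10 the mitochondrial complex V value was 0.45. That is MT-ATP6 alone, since MT-ATP8 (8.30, 7.83 and 9.33 CPM) did not reach the filter. Among protein-coding genes the mitochondrial share was 2.31% in 5637P, 3.34% in 5637GR 1 and 2.47% in 5637GR 2. With the 1.25-fold margin, 4 members were above and 12 below. The cause of these differences was not tested.

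Of the 50 tested genes that the naming rule chose, 29 kept their sign under all alternatives. Genes named outside the rule are not in that count, and of these ATP5G3 was at 0.016 in 5637GR 1 and -0.29 in 5637GR 2, ATP5G2 was at 0.055 with the chromosome median subtracted, and C14orf2 and NRF1 changed side as given above. In the authors' group means the log2 values were of the other sign for COX7A2 (0.12), MT-ATP6 (-0.062), MT-CO1 (-0.015), MT-CYB (-0.053), MT-ND2 (-0.069), NDUFA4 (0.0054), SDHB (0.023) and SDHC (-0.011). With the chromosome median subtracted they were for COX6A1 (0.13) and NDUFV1 (0.083). Leaving out a resistant library gave both signs for ATP5A1 (-0.22 to 0.14), COX6B2 (-0.81 to 0.65), COX7A2 (-0.30 to 0.14), COX7B (-0.75 to 0.25), MT-ATP6 (-0.052 to 0.78), MT-ATP8 (-0.085 to 0.17), MT-CO3 (-0.18 to 0.16), MT-CYB (-0.026 to 0.085), MT-ND4L (-0.076 to 0.16), MT-ND5 (-0.49 to 0.028), MT-ND6 (-0.44 to 0.30), NDUFA4 (-0.28 to 0.056), NDUFS5 (-0.56 to 0.044), SDHB (-0.57 to 0.14), SDHC (-0.10 to 0.39), UQCRB (-0.55 to 0.16) and UQCRFS1 (-0.16 to 0.076). PPARGC1A, read in 5637GR 2 alone, had an adjusted p of 0.0215 without the filter on low counts (edgeR).

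The single parental library limits every value: its own deviation enters each difference and cannot be told apart from the group. Genes under about 30 counts, such as NDUFA7 and ATP5I, had intervals too wide to limit a 2-fold difference.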
